A study of Mus musculus with 11 samples.

Results

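The insulin receptor and FOXO signaling genes are 9 genes of the path from the insulin receptor to the FOXO transcription factors and their coactivator: *Insr*, *Irs1*, *Irs2*, *Pik3r1*, *Akt1*, *Akt2*, *Foxo1*, *Foxo3* and *Ppargc1a*. They were chosen by name, with earlier results of these data known. All 9 were found among the 54232 gene identifiers counted in each library. The RNA came from Percoll-purified hepatocytes of adult male C57BL/6 mice. *Xbp1* fl/fl mice carry floxed *Xbp1* without Cre and are the controls. *Xbp1* LKO mice carry the same floxed gene and Cre driven by the albumin promoter, so that *Xbp1* is deleted in hepatocytes. Mice of both genotypes received standard chow with water, or the HFS diet, a Western diet with fructose and glucose in the drinking water, for up to 6 weeks. Of the 11 libraries, *Xbp1* fl/fl mice gave 3 on each diet, and *Xbp1* LKO mice gave 2 on chow and 3 on the HFS diet. A chow library is a single mouse, and an HFS library pools 2 mice.

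In hepatocytes, insulin binds the receptor INSR, which phosphorylates the adaptors IRS1 and IRS2. The adaptors recruit PI3-kinase through its regulatory subunit p85, made from *Pik3r1*, and the lipid product brings AKT1 and AKT2 to the membrane, where they are activated. AKT phosphorylates FOXO1 and FOXO3, which then leave the nucleus and stop inducing genes of glucose production and fasting, while PGC1A, made from *Ppargc1a*, coactivates FOXO1 at such genes. Most of this signaling runs through phosphorylation, which a transcript count does not measure. XBP1 is a transcription factor of the unfolded protein response.

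Total counts were 19191032 to 23888401 per library. Levels are given as CPM, a gene's share of the library's counts on the usual scale, after TMM scaling, a scaling that lets most genes stay level between libraries. *Xbp1*, the deleted gene, lay at 194 to 301 CPM in the 6 *Xbp1* fl/fl libraries and at 95.7 to 135 CPM in the 5 *Xbp1* LKO libraries. The counts cover the whole gene and do not separate the floxed exon. Hepatocyte markers were abundant in every library, but their summed level was lower in *Xbp1* LKO libraries (51600 to 99100 CPM) than in *Xbp1* fl/fl libraries (130000 to 184000 CPM). Chow-fed *Xbp1* LKO replicate 2 stood apart with the lowest sum and with 1.67% of its counts from *Alb*, against 3.72% in the other library of its group, and results that rest on it are also given without it. Summed endothelial markers lay at 53.3 to 131 CPM in the controls on chow and at 106 to 179 CPM in those on the HFS diet, and at 31.6 to 41.4 and 86.5 to 139 CPM in the *Xbp1* LKO libraries of each diet. In cells sampled in bulk, fewer cells of a type and less RNA per cell cannot be told apart.

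The question was whether the transcripts of this path differed between genotypes on either diet, or between diets in either genotype. No member passed an adjusted p of 0.05 in any of 7 comparisons with edgeR's quasi-likelihood test and Benjamini-Hochberg adjustment over 13303 genes. On chow, 0 of 9 members were called between genotypes, against 4.75% of all genes tested, and on the HFS diet 0 of 9 against 4.08%. For diet, 0 of 9 were called in *Xbp1* fl/fl (0.428% of all genes) and 0 of 9 in *Xbp1* LKO hepatocytes (0.0601%). Averaged over both diets, genotype called 0 of 9 members against 11.9% of all genes, and averaged over both genotypes, diet called 0 of 9 against 1.1%. The interaction of genotype and diet called 0 members and 0% of all genes, although 816 genes had an unadjusted p under 0.05. At an unadjusted p under 0.05, 1 member passed for genotype on chow (19.3% of all genes), 1 for genotype on the HFS diet (17.5%), 1 for diet in *Xbp1* fl/fl (8.95%) and 0 for diet in *Xbp1* LKO (12.7%). The same count was 1 for the interaction (6.13% of all genes), 0 for genotype over both diets (25.6%) and 2 for diet over both genotypes (14.8%). DESeq2 called 1 member, *Foxo1*, for diet in *Xbp1* fl/fl and for diet over both genotypes, and 0 elsewhere, and limma-voom called 0 in each. The median log2 fold change of the 9 members was 0.02 for genotype on chow, -0.10 for genotype on HFS, 0.09 for diet in *Xbp1* fl/fl and -0.03 for diet in *Xbp1* LKO, beside medians of -0.01 to 0.01 over all genes.

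**Figure D1:**
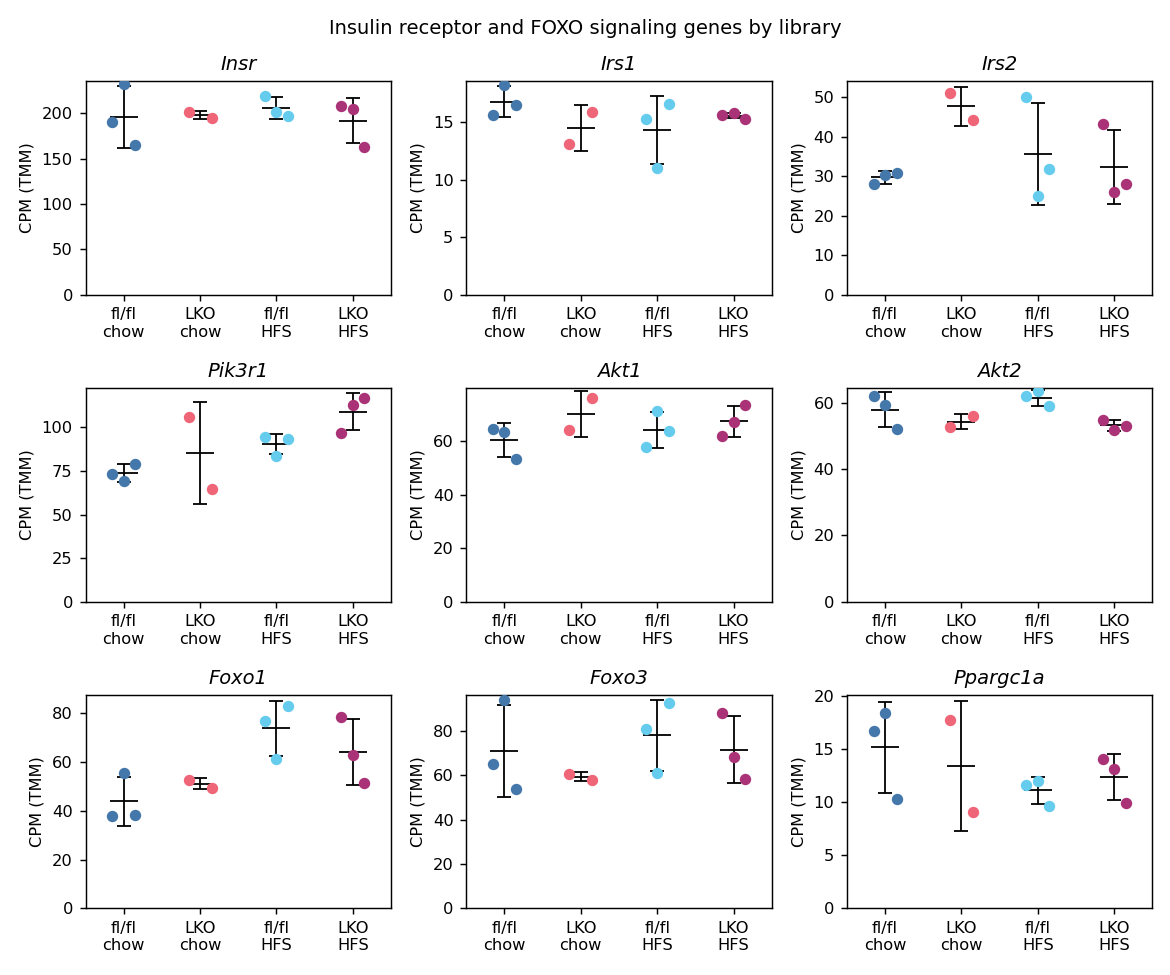
CPM of the 9 genes (vertical axes, linear, from 0) in each library of the 4 genotype and diet groups (horizontal axes); points are libraries, and bars are the group mean and SD. *Irs2* was highest as a group in the *Xbp1* LKO libraries on chow (44.2 and 51.1 CPM) and *Foxo1* in HFS-fed *Xbp1* fl/fl libraries (61.3 to 83.2 CPM), while *Insr* stayed between 163 and 232 CPM.

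To compare genes with each other, CPM was divided by exonic length in kilobases. On this scale the mean level over the 11 libraries was 15.9 for *Akt1*, 14.4 for *Insr*, 9.36 for *Foxo3*, 8.93 for *Pik3r1*, 7.99 for *Akt2*, 6.80 for *Foxo1*, 5.58 for *Irs2*, 1.96 for *Ppargc1a* and 1.68 for *Irs1*, in CPM per kb. *Insr* was above *Foxo3*, and *Irs2* above *Ppargc1a*, in 11 of 11 libraries. Only the step from *Irs2* (3.94 to 8.08 CPM per kb) to *Ppargc1a* (1.38 to 2.80) had ranges that did not overlap. The other neighbours in this order changed places in 3 to 5 of 11 libraries, so that *Foxo3* and *Pik3r1*, for example, did not differ beyond their spread. Counts behind these levels ran from 197 for *Ppargc1a* to 5525 for *Insr* in a single library.

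The members differed in how much they varied. *Akt2* was the steadiest, with a highest library 1.23 times its lowest, at the 4th percentile of the 7496 genes with a mean of at least 10 CPM. *Foxo1* varied most, 2.21 times from lowest to highest, followed by *Irs2* (2.05) and *Ppargc1a* (2.03), and the median of those genes was 1.54.

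*Insr* (ENSMUSG00000005534, chromosome 8 from 3122061 to 3279617 of GRCm38, minus strand) encodes the insulin receptor. Its level was 196 ± 34 CPM (SD, n = 3) in chow-fed *Xbp1* fl/fl, 198 ± 3.9 (n = 2) in chow-fed *Xbp1* LKO, 206 ± 11 (n = 3) in HFS-fed *Xbp1* fl/fl and 192 ± 26 (n = 3) in HFS-fed *Xbp1* LKO libraries. The groups overlapped in every comparison. The genotype difference had a log2 fold change of 0.02 on chow, with a 95% interval of -0.33 to 0.37, and of -0.10 on the HFS diet, with an interval of -0.41 to 0.21.

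*Irs1* (ENSMUSG00000055980, chromosome 1 from 82233101 to 82291416, minus strand) and *Irs2* (ENSMUSG00000038894, chromosome 8 from 10984681 to 11008458, minus strand) encode the adaptors that dock on the activated receptor. *Irs2* is itself a known FOXO1 target that rises in fasting. In the promoter table of RefSeq (GRCm38.p6), which matched 8 of the 9 members, both genes hold an E-box, CACGTG, beside TGTTTTG, the core of insulin response sequences bound by FOXO factors. The stretches are shown because this pair shares the arrangement. Distances are counted from the RefSeq start, which for *Irs2* lies 471 bases and for *Irs1* 23 bases upstream of the GENCODE gene start given above. They are given 5′ to 3′ on the minus strand, with both motifs in capitals, for chr1:82291459-82291569 (from 130 to 20 bases before the RefSeq *Irs1* start) and chr8:11008949-11008989 (from 60 to 20 bases before the RefSeq *Irs2* start):
Irs1: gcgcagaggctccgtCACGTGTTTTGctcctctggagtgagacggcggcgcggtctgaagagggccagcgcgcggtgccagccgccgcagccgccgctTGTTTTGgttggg
Irs2: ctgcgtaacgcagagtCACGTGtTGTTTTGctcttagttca
In *Irs1* the end of the E-box overlaps the start of TGTTTTG, which occurs again nearer the start, while in *Irs2* a single base separates them. Among 32851 windows of 250 bases before RefSeq starts, searched on both strands, 5.6% hold TGTTTTG and 6.0% hold CACGTG. A match describes letters and not binding.

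*Irs2* lay at 27.9, 30.3 and 30.8 CPM in the chow-fed controls and at 51.1 and 44.2 CPM in chow-fed *Xbp1* LKO libraries. Both chow-fed *Xbp1* LKO libraries were above all chow-fed *Xbp1* fl/fl libraries, as was the case, in either direction, for 31.3% of all genes in this comparison. The log2 fold change was 0.68 (95% interval 0.10 to 1.26), a 1.61-fold higher level, with an adjusted p = 0.18 in edgeR's quasi-likelihood test. With each replicate left out in turn the log2 fold change stayed between 0.57 and 0.78. The call depended on the setting: scaled by library totals, which raised the median of all genes by 0.33 on chow, *Irs2* had a log2 fold change of 1.01 (edgeR adjusted p = 0.02), and without the filter on low counts one of 0.71 (edgeR adjusted p = 0.00048).

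After the HFS diet, *Irs2* was 50, 24.9 and 31.8 CPM in *Xbp1* fl/fl and 43.1, 26.0 and 27.9 CPM in *Xbp1* LKO libraries. In both HFS-fed groups replicate 1 was well above the other two, and the genotypes overlapped (log2 fold change -0.14, 95% interval -0.66 to 0.39). Within *Xbp1* LKO, every HFS-fed library was below both chow-fed libraries, as was so in either direction for 31.1% of all genes (log2 fold change -0.56, 95% interval -1.14 to 0.02, adjusted p = 0.41, edgeR). The genotype difference on the HFS diet minus that on chow was -0.82 on the log2 scale (95% interval -1.61 to -0.04), with an adjusted p = 0.79 for the interaction in edgeR. *Irs1* was lower and steadier, at 11 to 18.2 CPM over all libraries, and its genotype difference was -0.20 on chow (95% interval -0.57 to 0.16) and 0.12 on the HFS diet (-0.20 to 0.44) as log2 fold changes.

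*Pik3r1* (ENSMUSG00000041417, chromosome 13 from 101680563 to 101768217, minus strand) encodes the p85 regulatory subunits of PI3-kinase. Its levels were 73.1, 69.0 and 79.2 CPM in the chow-fed controls and 94.5, 83.8 and 93.5 CPM in HFS-fed *Xbp1* fl/fl libraries. In *Xbp1* LKO libraries they were 106 and 64.4 CPM on chow and 97.0, 113 and 117 CPM on the HFS diet. The HFS-fed *Xbp1* fl/fl libraries were all above the chow-fed ones (13.7% of all genes did not overlap there), and on the HFS diet every *Xbp1* LKO library was above every *Xbp1* fl/fl library (26.1% of all genes did not overlap). The 2 chow-fed *Xbp1* LKO libraries lay far apart, replicate 2 below all other libraries.

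Over both genotypes, *Pik3r1* had a log2 fold change with diet of 0.33 (95% interval 0.06 to 0.59), with an adjusted p = 0.24 in edgeR. Over both diets it had a log2 fold change with genotype of 0.24 (-0.03 to 0.50; adjusted p = 0.25). These values turn on the chow-fed *Xbp1* LKO pair. Without its replicate 2 the genotype difference was 0.39 and passed the test (edgeR adjusted p = 0.03), and without its replicate 1 the diet difference was 0.53 and passed (adjusted p = 0.032).

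*Akt1* (ENSMUSG00000001729, chromosome 12 from 112653821 to 112674884, minus strand) and *Akt2* (ENSMUSG00000004056, chromosome 7 from 27591552 to 27640826, plus strand) encode the kinases that phosphorylate FOXO factors. AKT2 is the isoform best known for insulin action in the liver. *Akt1* was 64.7, 63.3 and 53.2 CPM in chow-fed *Xbp1* fl/fl, 64.1 and 76.2 in chow-fed *Xbp1* LKO, 57.7, 71.2 and 64.0 in HFS-fed *Xbp1* fl/fl and 61.8, 67.2 and 73.5 in HFS-fed *Xbp1* LKO libraries. *Akt2* was 62.2, 59.4 and 52.1 CPM, 52.8 and 55.9 CPM, 62.2, 63.5 and 58.9 CPM, and 54.9, 51.7 and 52.9 CPM in the same order of groups. The *Akt1* groups overlapped in each comparison, whereas on the HFS diet all *Akt2* values in *Xbp1* LKO were below those in *Xbp1* fl/fl, beside 26.1% of all genes that did not overlap there. That *Akt2* difference was a log2 fold change of -0.21 (95% interval -0.41 to -0.01), with an adjusted p = 0.27 in edgeR. Scaled by library totals, which raised the median of all genes by 0.27 on this diet, it was 0.05.

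The ratio of paralogs within a library does not depend on how libraries are scaled. The ratio of *Akt1* to *Akt2*, both in CPM per kb, was 1.81, 1.86 and 1.78 in chow-fed *Xbp1* fl/fl, 2.11 and 2.37 in chow-fed *Xbp1* LKO, 1.62, 1.95 and 1.89 in HFS-fed *Xbp1* fl/fl and 1.96, 2.26 and 2.42 in HFS-fed *Xbp1* LKO libraries. Every *Xbp1* LKO library was above every *Xbp1* fl/fl library, the nearest being 1.96 and 1.95. The mean difference within diets was 0.29 on the log2 scale (exact permutation test, two-sided, p = 0.005, the lowest value 200 rearrangements can give; adjusted p = 0.03 over 6 tests). With 1 library left out in turn it was 0.25 to 0.34, with adjusted p-values of 0.03 to 0.075 in the same permutation test, which then has fewer rearrangements. Hepatocyte marker sums separated the genotypes in the same way, and their part in this ratio was not tested. With diet, the ratio differed by -0.01 on the log2 scale (adjusted p = 0.88, permutation test).

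The ratio of *Irs2* to *Irs1* was 2.40 to 2.69 in chow-fed *Xbp1* fl/fl, 3.99 and 5.60 in chow-fed *Xbp1* LKO, 2.76 to 4.69 in HFS-fed *Xbp1* fl/fl and 2.37 to 3.97 in HFS-fed *Xbp1* LKO libraries. Both chow-fed *Xbp1* LKO libraries were above the chow-fed controls, but the HFS-fed groups overlapped. The differences were 0.32 with genotype (adjusted p = 0.42) and -0.13 with diet (adjusted p = 0.77) on the log2 scale, in the permutation test.

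**Figure D2:**
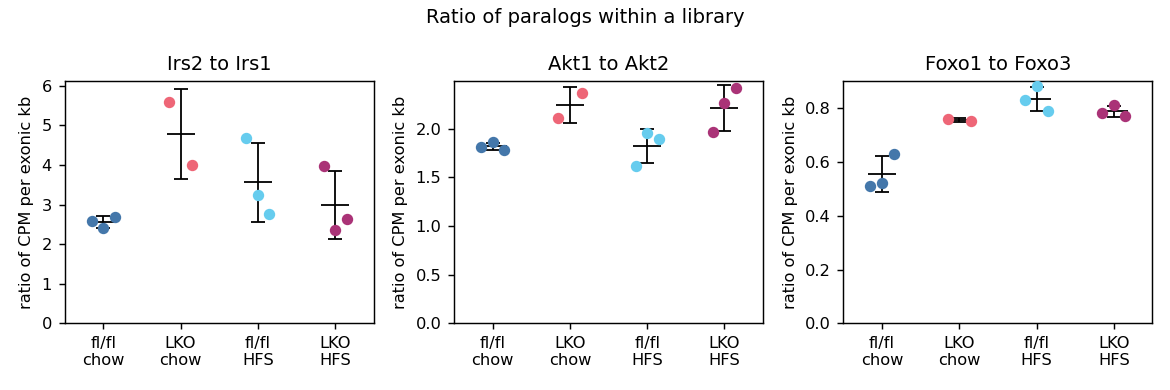
Ratio of CPM per exonic kilobase between paralogs (vertical axes, linear, from 0) in each library of the 4 groups (horizontal axes); points are libraries, and bars are the group mean and SD. *Akt1* to *Akt2* was 1.62 to 1.95 in *Xbp1* fl/fl and 1.96 to 2.42 in *Xbp1* LKO libraries, and *Foxo1* to *Foxo3* was lowest in the chow-fed controls (0.51 to 0.63).

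*Foxo1* (ENSMUSG00000044167, chromosome 3 from 52268336 to 52353221, plus strand) encodes the main FOXO factor of hepatic glucose production. It was 37.7, 55.5 and 38.5 CPM in the chow-fed controls and 77.0, 61.3 and 83.2 CPM in HFS-fed *Xbp1* fl/fl libraries. All HFS-fed libraries were above all chow-fed ones of this genotype, and 13.7% of all genes did not overlap in this comparison. The log2 fold change was 0.75 (standard error 0.19, 95% interval 0.34 to 1.16), a 1.68-fold higher level. The adjusted p was 0.18 in edgeR, 0.024 in DESeq2 and 6.7e-05 in edgeR without the filter on low counts, so the call depended on the setting.

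In *Xbp1* LKO libraries *Foxo1* was 52.7 and 49.5 CPM on chow and 78.5, 63.0 and 51.5 CPM on the HFS diet. These groups overlapped, with a log2 fold change of 0.33 (95% interval -0.13 to 0.79). The diet effect did not differ between genotypes beyond the spread (difference -0.42, 95% interval -1.03 to 0.19, adjusted p = 0.87, edgeR). Averaged over both genotypes, *Foxo1* had a log2 fold change with diet of 0.54 (95% interval 0.23 to 0.85), with an adjusted p of 0.099 in edgeR and 0.017 in DESeq2. With each library left out in turn it stayed between 0.46 and 0.64. Endothelial marker sums were also higher after the HFS diet in both genotypes, with 12 of 12 markers at a positive log2 fold change and 1 of 12 past the test over both genotypes, and their part in the *Foxo1* difference was not tested. The 12 macrophage markers and the 10 tested stellate markers were at a positive log2 fold change too, with 0 and 1 past the test.

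*Foxo3* (ENSMUSG00000048756, chromosome 10 from 42181841 to 42276755, minus strand) ranged from 53.6 to 94.0 CPM and its groups overlapped in every comparison, with a log2 fold change with diet over both genotypes of 0.21 (95% interval -0.15 to 0.57). The ratio of *Foxo1* to *Foxo3* was 0.51, 0.52 and 0.63 in chow-fed *Xbp1* fl/fl, 0.76 and 0.75 in chow-fed *Xbp1* LKO, 0.83, 0.88 and 0.79 in HFS-fed *Xbp1* fl/fl and 0.78, 0.81 and 0.77 in HFS-fed *Xbp1* LKO libraries. It was lowest in the chow-fed controls, and the other groups lay close together. The mean difference with diet within genotypes was 0.33 on the log2 scale (two-sided exact permutation test, p = 0.01, adjusted p = 0.03 over 6 tests) and that with genotype within diets was 0.19 (adjusted p = 0.38). With 1 library left out in turn the diet difference was 0.30 to 0.38, with adjusted p-values of 0.03 to 0.075 in the permutation test.

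*Ppargc1a* (ENSMUSG00000029167, chromosome 5 from 51454250 to 51567726, minus strand) encodes PGC1A, a coactivator induced by fasting. Its RefSeq promoter window was the single member window of 13 that holds TGACGTGG or its reverse complement CCACGTCA, the unfolded protein response element to which XBP1 is known to bind, and 0.6% of all windows hold it. It is shown for that reason, 5′ to 3′ on the minus strand at chr5:51567745-51567805 of GRCm38.p6, from 80 to 20 bases before the RefSeq start, with the match in capitals:
Ppargc1a: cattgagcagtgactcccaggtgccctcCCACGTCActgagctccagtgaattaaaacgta
The match overlaps CGTCA, a part of the cyclic AMP response element, which 17.8% of windows hold.

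*Ppargc1a* lay at 16.7, 18.4 and 10.3 CPM in the chow-fed controls and 17.7 and 9.09 CPM in chow-fed *Xbp1* LKO libraries. After the HFS diet it was 11.6, 12 and 9.65 CPM in *Xbp1* fl/fl and 14, 13.1 and 9.89 CPM in *Xbp1* LKO libraries. The groups overlapped throughout, and libraries of 1 group differed as much as the groups did. The genotype difference had a log2 fold change of -0.17 on chow (95% interval -0.82 to 0.47) and of 0.15 on the HFS diet (-0.43 to 0.73). These are among the widest intervals of the 9 genes.

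**Figure D3:**
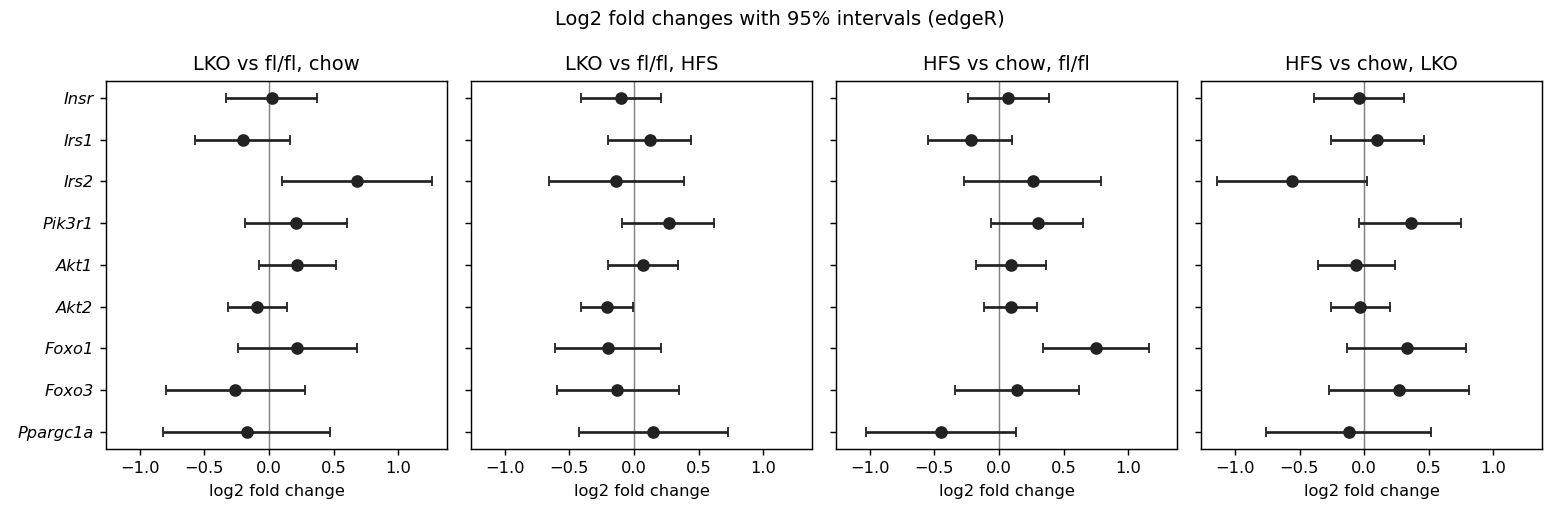
Log2 fold changes (horizontal axes) of the 9 genes in 4 comparisons, with 95% intervals from edgeR's quasi-likelihood fit. The intervals that leave out 0 are those of *Irs2* for genotype on chow (0.10 to 1.26), *Akt2* for genotype on the HFS diet (-0.41 to -0.01) and *Foxo1* for diet in *Xbp1* fl/fl (0.34 to 1.16), and none of these passed adjustment over all genes.

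Over the 11 libraries, the genes most like each member were found by Pearson's r of log2 CPM among 11129 genes with a mean of at least 1 CPM. They were *Npc1* (0.902) and *Tjp1* (0.897) for *Insr*, *Pramef8* (0.867) and *Trim68* (0.856) for *Irs1*, *Tbc1d8* (0.906) and *Nkrf* (0.866) for *Irs2*, and *Apool* (0.947) and *C630043F03Rik* (0.923) for *Pik3r1*. *Spg21* (0.944) and *Grk6* (0.942) were most like *Akt1*, *C4b* (0.936) and *Wipi1* (0.924) most like *Akt2*, *Smarca2* (0.911) and *Dock5* (0.911) most like *Foxo1*, *Gab1* (0.908) and *Ipmk* (0.900) most like *Foxo3*, and *Ago1* (0.887) and *Cmtm8* (0.852) most like *Ppargc1a*. Among the members themselves, the highest r was 0.72 between *Foxo1* and *Foxo3*, followed by 0.71 between *Insr* and *Foxo3*. These are descriptions, since the libraries fall into 4 groups and a best match among many genes is high by choice.

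Further genes of the path were taken from 6 lists. Their counts stand beside 4.75% of all genes called for genotype on chow, 4.08% on the HFS diet, 11.9% over both diets and 1.1% for diet over both genotypes, and a list count near these shares is no result about the list. Without replicate 2 of chow-fed *Xbp1* LKO, which leaves 1 library in that group, 0 genes of the 6 lists and 67 of all genes were called on chow. Of the 8 genes called on chow, *Trib3* and *Cdkn1a* then had much smaller log2 fold changes, while *Ptprf* (-1.67), *Gadd45a* (0.99), *Insig1* (-1.17), *Acly* (-1.28), *Scd1* (-2.19) and *Fasn* (-0.85) kept 0.7 or more of theirs. Of 33 tested genes from the receptor to its kinases (kinase subunits, the mTOR complexes and their substrates), 0 were called on either diet and 2 over both diets. *Mlst8*, a subunit of the mTOR complexes, rose with *Xbp1* deletion (log2 fold change 0.39, adjusted p = 0.043, edgeR), and *Pik3c2a*, a class II PI3-kinase, fell (-0.40, adjusted p = 0.047). The median of this list was -0.03 over both diets, beside 0.01 for all genes. Both calls were lost in 8 or more of the 11 fits with 1 library left out, at -0.46 to -0.31 for *Pik3c2a* and 0.34 to 0.43 for *Mlst8*. Scaled by library totals, *Pik3c2a* (-0.11) did not pass.

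Of 29 tested inhibitors of the insulin signal, 2 were called on chow, 1 on the HFS diet and 3 over both diets. *Ptprf*, a receptor phosphatase that can act on the insulin receptor, was 170 to 293 CPM in the chow-fed controls and 73.0 and 83.3 CPM in the *Xbp1* LKO libraries on chow, and 255 to 333 CPM and 67.0 to 111 CPM after the HFS diet. It fell in *Xbp1* LKO hepatocytes by 1.57 on chow (adjusted p = 0.0072, edgeR) and by 1.74 on the HFS diet (adjusted p = 0.0025, edgeR) on the log2 scale. All *Xbp1* LKO libraries of both diets were below all *Xbp1* fl/fl libraries, as was so in either direction for 7.53% of all genes. *Trib3*, a pseudokinase described as an AKT inhibitor and induced by cell stress, was 15.7 to 17.2 CPM in the chow-fed controls and 31.1 and 117 CPM in chow-fed *Xbp1* LKO libraries. It was 13.0 to 17.0 CPM in HFS-fed *Xbp1* fl/fl and 22 to 55.3 CPM in HFS-fed *Xbp1* LKO libraries. It rose on chow (log2 fold change 2.19, adjusted p = 0.023, edgeR) and over both diets (1.69, adjusted p = 0.0054). Replicate 2 of chow-fed *Xbp1* LKO held the high value, and without it the *Trib3* difference on chow was 0.93 with an adjusted p of 0.39 (edgeR). The *Trib3* call on chow was also lost with any control library left out (adjusted p of 0.057 to 0.078, edgeR, log2 fold change 2.16 to 2.23). *Ptprf* on chow was -1.67 with an adjusted p of 0.067 (edgeR) where a single *Xbp1* LKO library remained. *Mapk8*, which encodes the kinase JNK1 that phosphorylates IRS1, fell by 0.29 over both diets (adjusted p = 0.045, edgeR). Over both diets *Ptprf* and *Trib3* were called with any library left out, and *Mapk8* in 1 of 11 such fits (-0.34 to -0.24). Scaled by library totals *Mapk8* was at 0 on the log2 scale.

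**Figure D4:**
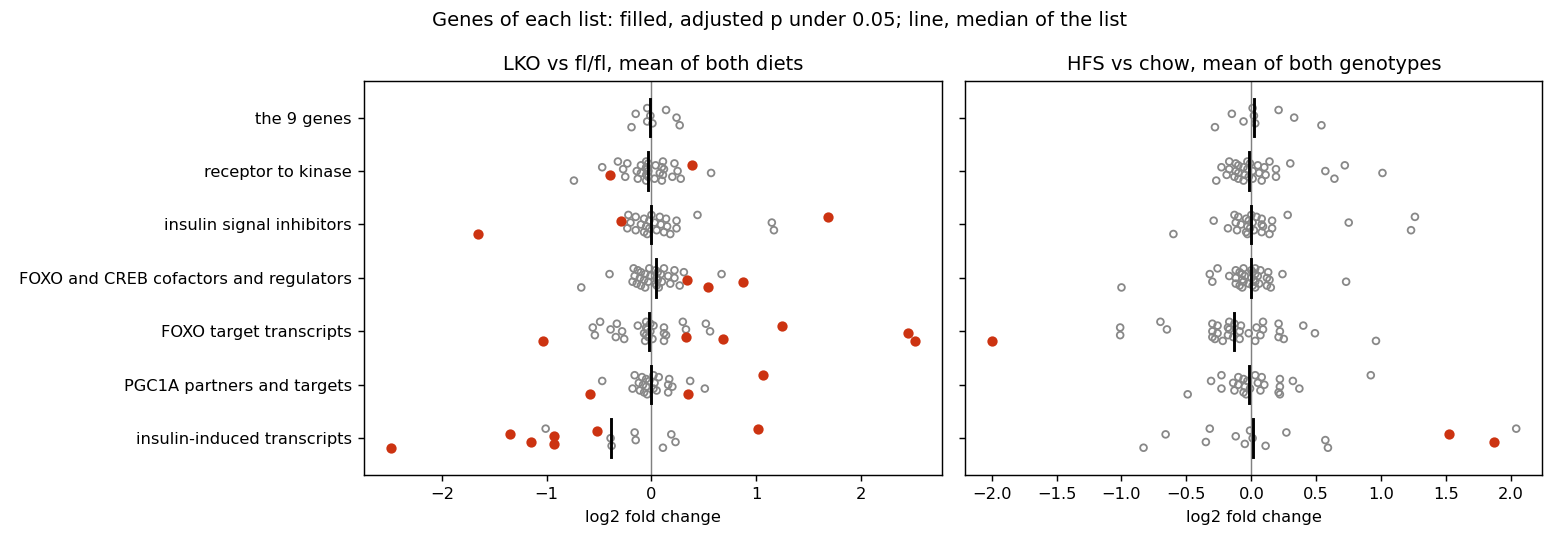
Log2 fold changes (horizontal axes) of the 9 genes and of 6 lists of pathway genes (rows) for genotype averaged over both diets and for diet averaged over both genotypes; each point is a gene, filled where edgeR's adjusted p was under 0.05, and the upright line is the median of the row. None of the 9 genes is filled, and 6 of 15 insulin-induced transcripts are filled below 0 for genotype.

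Of 36 tested cofactors and regulators of FOXO and CREB, 0 were called on either diet and 3 over both diets, all higher in *Xbp1* LKO hepatocytes. They were *Ywhaz*, an adaptor that holds phosphorylated FOXO in the cytoplasm (log2 fold change 0.34, adjusted p = 0.0099), *Hdac5*, a deacetylase that acts on FOXO in fasting (0.54, 0.012), and *Notch1* (0.87, 0.02), from edgeR. Of 26 tested PGC1A partners and targets, 0 were called on either diet and 3 over both: *Kat2a*, an acetyltransferase of PGC1A (0.35, adjusted p = 0.015, edgeR), and the nuclear receptor *Esrrg* (1.07, 0.04) were higher, and *Ppargc1b*, the paralog of *Ppargc1a*, was lower (-0.59, 0.043). With 1 library left out in turn, *Ywhaz* (0.26 to 0.40), *Hdac5* (0.41 to 0.65) and *Kat2a* (0.30 to 0.39) lost the call in 1 of 11 fits and *Notch1* (0.53 to 1.10) in 2. *Esrrg* (0.93 to 1.31) and *Ppargc1b* (-0.79 to -0.44) lost it in 9 of 11, so that these calls are marginal. Without replicate 2 of chow-fed *Xbp1* LKO none of the 6 passed, and scaled by library totals *Ppargc1b* (-0.31) did not pass.

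Of 34 tested FOXO target transcripts, 2 rose on chow, 2 on the HFS diet and 5 over both diets, beside list medians of 0.01, -0.05 and -0.02. Those over both diets were *Gadd45a* (log2 fold change 1.25, adjusted p = 0.0014, edgeR), *Cdkn1a* (2.52, 0.0051), *Bcl2l11* (0.68, 0.0043), *Pdk4* (2.45, 0.012) and *Prdx3* (0.33, 0.037). *Gadd45a* and *Cdkn1a* act in growth arrest and *Bcl2l11* in apoptosis, *Pdk4* holds back pyruvate oxidation, and *Prdx3* is a mitochondrial peroxidase. *Gadd45a* was 3.58 to 7.53 CPM in the *Xbp1* fl/fl libraries of both diets and 9.47 to 17.7 CPM in the *Xbp1* LKO libraries, so the genotypes did not overlap, as for 7.53% of all genes. *Cdkn1a* was 30.2 CPM and *Pdk4* 34.6 CPM in chow-fed *Xbp1* LKO replicate 2, against 4.22 and 3.84 CPM in replicate 1. Without replicate 2, *Cdkn1a* on chow had a log2 fold change of 0.69 (adjusted p = 0.79, edgeR), and *Pdk4* over both diets one of 1.29 (adjusted p = 0.11). Over both diets *Gadd45a*, *Cdkn1a* and *Bcl2l11* were called with any library left out, while *Prdx3* lost the call in 9 of 11 fits (0.27 to 0.38).

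The transcripts best known as FOXO1 targets in the liver were looked up after values were seen. *G6pc*, the last enzyme of glucose production, was 257 to 767 CPM and *Pck1*, the enzyme that commits to gluconeogenesis, 1770 to 6610 CPM over all libraries. Over both diets their log2 fold changes with genotype were -0.49 (adjusted p = 0.18) and -0.39 (adjusted p = 0.36) in edgeR. *Igfbp1*, which insulin represses, was 45.6 to 270 CPM with a log2 fold change of 0.14 (95% interval -0.68 to 0.96, adjusted p = 0.87, edgeR). None of these 3 was called in any of the 7 comparisons, while *Pdk4* was called in genotype over both diets only. With diet over both genotypes, 1 FOXO target was called, *Gadd45b*, which fell by 2.00 on the log2 scale (adjusted p = 0.029, edgeR) and lay at 0.147 to 2.29 CPM. That call was lost with limma-voom (adjusted p = 0.053), with the replicate numbers as a block (adjusted p of 0.05 and 0.056) and in 6 of 11 fits with 1 library left out (-2.21 to -1.70).

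**Figure D5:**
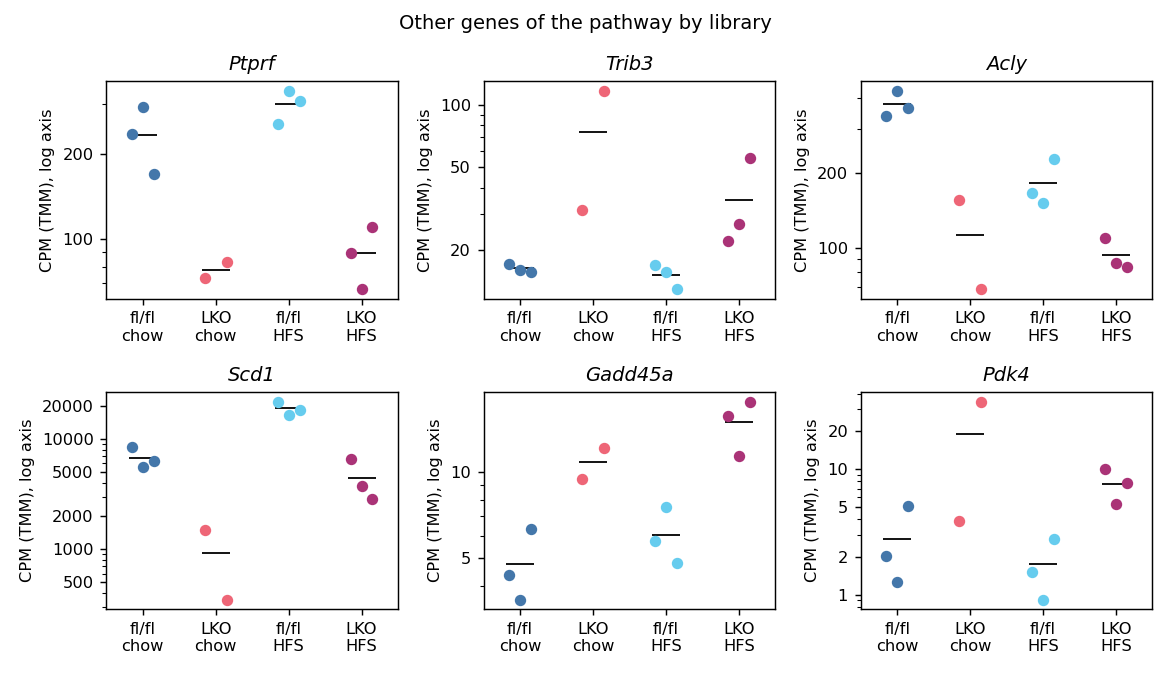
CPM (vertical axes, log scale) of 6 pathway genes in each library of the 4 groups (horizontal axes); points are libraries and the bar is the group mean. *Ptprf* was 67.0 to 111 CPM in all *Xbp1* LKO libraries and 170 to 333 CPM in all *Xbp1* fl/fl libraries, while the high *Trib3* (117 CPM) and *Pdk4* (34.6 CPM) values on chow belong to 1 *Xbp1* LKO library.

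Of 15 insulin-induced transcripts, 4 fell on chow, 1 fell on the HFS diet, and 6 fell over both diets, with a list median of -0.39 beside 0.01 for all genes. Those that fell are enzymes and regulators of lipid synthesis. On chow they were *Scd1* (log2 fold change -2.88, adjusted p = 0.015, edgeR), *Acly* (-1.75, 0.01), *Insig1* (-1.37, 0.023) and *Fasn* (-1.20, 0.024), and over both diets also *Srebf1* (-1.15, 0.036) and *Acaca* (-0.52, 0.019). On the HFS diet it was *Scd1* (-2.10, adjusted p = 0.03, edgeR), a call lost with limma-voom (adjusted p = 0.055) and in 5 of 6 fits with 1 library left out (-2.52 to -1.87). *Scd1* was 5560 to 8540 CPM in the chow-fed controls and 1490 and 350 CPM in chow-fed *Xbp1* LKO libraries. With only the chow libraries fitted, the chow calls of *Acly* (edgeR adjusted p = 0.056), *Scd1* (0.064) and *Fasn* (0.079) were lost at the same log2 fold changes. The *Insig1* call on chow was lost without control replicate 1 (-1.29, edgeR adjusted p = 0.053) or replicate 2 (-1.43, 0.05). That of *Fasn* was lost without control replicate 1 (-1.11, edgeR adjusted p = 0.058). With diet over both genotypes, *Scd1* (1.87, adjusted p = 0.033) and *Srebf1* (1.52, adjusted p = 0.049) rose in edgeR. With 1 library left out in turn, *Scd1* (1.53 to 2.57) lost the call in 6 of 11 fits and *Srebf1* (1.24 to 1.98) in 8 of 11, and *Srebf1* also lost it with RLE size factors, the filter at 1 CPM and the replicate number as a block. Without replicate 2 of chow-fed *Xbp1* LKO, 4 of those that fell over both diets still passed: *Scd1*, *Acly*, *Fasn* and *Acaca*. *Srebf1* with genotype lost the call in 7 of 11 fits with 1 library left out (-1.61 to -0.87). Scaled by library totals, *Acaca* (-0.24) did not pass.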

How the data were processed

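Hepatocyte RNA-seq of 11 libraries was analysed, with groups taken from the sample labels. The authors deposited whole-number counts per Ensembl gene from 50-base single-end reads, neither normalized nor filtered. The study's methods name kallisto and tximport, and the submitters' processing notes name cutadapt 1.13, STAR, HTSeq 0.6.1p1 and mm10; which made the deposited counts was not settled. The kit is given as stranded mRNA in the methods and as total RNA in the labels. Of 54232 identifiers, 54165 were found in GENCODE M21 (GRCm38), which gave symbols, positions and exonic lengths. Antisense genes share exonic bases with *Irs1*, *Irs2* and *Foxo1* and had counts of 0 to 1.

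The counts were scaled by TMM in edgeR 4.0.16 (R 4.3.3). Genes were filtered with filterByExpr at a minimum count of 10, and 1 factor of 4 groups was fitted to all libraries by quasi-likelihood. Contrasts were adjusted by Benjamini-Hochberg, with a threshold of 0.05. Total counts were 19191032 to 23888401. The chi-square per degree of freedom between replicates was 25.4 to 91.5, far over counting error, so errors are given between libraries. Ratios were compared by exact permutation within strata. DESeq2 1.42.0, limma-voom (limma 3.58.1), other scalings, filters, sample sets, replicate blocks and leaving out each library were alternatives. Log2 CPM for likeness used a prior count of 2. Code was tested on simulated counts.

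The members and lists were chosen with earlier results of these data known. Genes named from the lists are those past the threshold, by rule the 4 with the smallest p per list and comparison; *Pdk4*, *Prdx3*, *Acaca*, *G6pc*, *Pck1* and *Igfbp1* were added after their values were seen. Some genes past the threshold are not reported here. RefSeq gave promoter windows. Protein and quantitative PCR data were not analysed here.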

Additional observations from a re-analysis of the deposited data

How the results depend on the processing

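The number of members called moved from 0 in these settings, with the cause not tested. With DESeq2 it was 1, *Foxo1*, for diet in *Xbp1* fl/fl (0.75) and for diet over both genotypes (0.54). Without a filter on low counts it was 1 for genotype on chow (*Irs2* 0.71), diet in *Xbp1* fl/fl (*Foxo1* 0.75), diet in *Xbp1* LKO (*Irs2* -0.57), the interaction (*Irs2* -0.84) and diet over both genotypes (*Foxo1* 0.54). With library totals in place of TMM it was 2 on chow (*Irs2* 1.01, *Akt1* 0.55) and 3 over both diets (*Irs2* 0.56, *Pik3r1* 0.52, *Akt1* 0.44). Library totals raised the median of all genes by 0.33 on chow, 0.27 on the HFS diet and 0.30 over both diets, and the share of called genes that were higher from 36.4% to 89.5%, from 47.1% to 86.9% and from 44.2% to 91.4%. They reversed *Irs1* (0.13), *Akt2* (0.24), *Foxo3* (0.08) and *Ppargc1a* (0.14) on chow, *Insr* (0.16), *Irs2* (0.10), *Akt2* (0.05), *Foxo1* (0.05) and *Foxo3* (0.13) on the HFS diet, and *Insr* (0.25), *Irs1* (0.26), *Akt2* (0.14), *Foxo3* (0.10) and *Ppargc1a* (0.27) over both diets, each below or near that shift.

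Genes called in all were 632 for genotype on chow, 543 on the HFS diet, 57 for diet in *Xbp1* fl/fl, 8 in *Xbp1* LKO, 0 for the interaction, 1582 for genotype over both diets and 146 for diet over both genotypes. They were 3000, 1483 and, over both diets, 5802 for genotype with library totals. DESeq2 gave 1130, 1007, 181, 213 and 29 in the first 5 comparisons and 531 for diet over both genotypes. No filter gave 1507, 1438, 499, 722, 269 and 1003 in the same order. Only the groups compared gave 227 on chow, 825 on the HFS diet and 0 for diet in *Xbp1* LKO, and limma-voom gave 5 there.

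Replicate numbers are shared between groups, but same-numbered libraries are different animals: their deviations correlated at -0.01 on average over 15 pairs (-0.20 to 0.23), and 3 of 11 libraries correlated best with their own number. With the replicate block, diet in *Xbp1* LKO called 19 genes (53 with the other numbering), 0 members were called, and *Insr* on chow (-0.06), *Insr* (0.04) and *Ppargc1a* (0.06) with diet in *Xbp1* LKO, and *Foxo1* with genotype over both diets (-0.02) reversed; with the other numbering *Ppargc1a* with genotype (0.02) and *Insr* with diet (-0.01) did. *Ppargc1a* with genotype over both diets was also 0.01 without a filter.

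With 1 library left out in turn, genes called were 67 to 786 on chow (67 without chow-fed *Xbp1* LKO replicate 2), 184 to 530 on the HFS diet, 6 to 44 and 0 to 39 for diet in *Xbp1* fl/fl and *Xbp1* LKO, 849 to 1729 for genotype and 58 to 266 for diet over both, and members called were 0 to 1 in both averages. Signs that turned belonged to small, uncalled differences. For genotype on chow, *Insr* ranged from -0.09 to 0.16, *Pik3r1* from -0.19 to 0.52 and *Ppargc1a* from -0.73 to 0.23; on the HFS diet, *Insr* from -0.16 to 0.01, *Irs1* from -0.04 to 0.24, *Irs2* from -0.40 to 0.19 and *Foxo3* from -0.30 to 0.01. For diet in *Xbp1* fl/fl, *Insr* ranged from -0.04 to 0.21, *Irs2* from -0.06 to 0.46 and *Foxo3* from -0.03 to 0.40; in *Xbp1* LKO, *Insr* from -0.10 to 0.06, *Irs1* from -0.03 to 0.26, *Akt1* from -0.18 to 0.08, *Akt2* from -0.07 to 0.02 and *Ppargc1a* from -0.51 to 0.44. For the interaction, *Pik3r1* ranged from -0.25 to 0.46, *Foxo3* from -0.13 to 0.30 and *Ppargc1a* from -0.07 to 0.89. For genotype over both diets, *Insr* ranged from -0.10 to 0.03, *Irs1* from -0.12 to 0.02, *Foxo1* from -0.07 to 0.11 and *Ppargc1a* from -0.29 to 0.19; for diet over both genotypes, *Insr* from -0.04 to 0.08, *Irs1* from -0.13 to 0.02, *Akt1* from -0.04 to 0.09 and *Akt2* from -0.01 to 0.06. The ratio differences were 0.25 to 0.34 for *Akt1* to *Akt2* with genotype, -0.05 to 0.03 with diet, and 0.30 to 0.38 for *Foxo1* to *Foxo3* with diet. The counts of list genes without chow-fed *Xbp1* LKO replicate 2 were added after seeing the data. Chow-fed *Xbp1* LKO hepatocytes had 2 libraries, and with 1 of them left out the other was assumed to vary like the other groups.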
